A study of Rosa roxburghii with 15 samples.

Results

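The genes described here are 4 unigenes of Rosa roxburghii, a wild rose grown for its fruit, whose best matches in the table of MYBs are ETC1 or ETC3. The rule that chose them used that description and no threshold on expression, although the set was put together with earlier results of these data known. DN146126_c4_g1 matched an ETC1 of Populus euphratica, DN149700_c2_g2 an ETC1 isoform of Cajanus cajan, and DN149700_c2_g3 and DN144174_c0_g4 each matched an ETC3 of Fragaria vesca. They are 4 of the 163 unigenes named as MYBs and of the 63727 unigenes of the series. The table describes 5 unigenes as ETC1 or ETC3 in all. The remaining one, DN134407_c0_g1, also an ETC3 match, is not counted among the 4 and its values are given after theirs. In the deposited tables their identifiers are TRINITY_DN146126_c4_g1, TRINITY_DN149700_c2_g2, TRINITY_DN149700_c2_g3 and TRINITY_DN144174_c0_g4, and the prefix is left out below. The name single-repeat comes from the Arabidopsis proteins, since the repeat type of these unigenes was not given in the sources used here and no sequence of them was read.

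RNA was sequenced from 5 tissues of wild plants kept in pots at 1 site, with 3 libraries a tissue and 15 in all, and the plants had received no treatment. The leaf libraries came from fully grown leaves with the petiole removed, the stem libraries from new shoots, the flower libraries from open flowers, and the fruit libraries from fruit 50 days (young) and 120 days (mature) after flowering. The vegetative and flower tissues were taken in a single month and each fruit stage in a later one, so that tissue and sampling date cannot be told apart in comparisons with fruit. The sources differ on how many biological replicates stand behind the 3 libraries, and p-values therefore measure the spread between these libraries, part of which may be technical.

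MYB proteins bind DNA through repeats of the MYB domain. In Arabidopsis, ETC1 and ETC3 (ENHANCER OF TRY AND CPC) belong to the CAPRICE family, small proteins with a single R3 repeat and no activation domain. They compete with R2R3 MYBs such as GLABRA1 and WEREWOLF for bHLH partners, and in this way restrain the formation of trichomes on shoots and favour root hairs in the root epidermis. Their role in roses is not known from these data, and the names below are those of the best match.

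Expression was given as FPKM, a count of fragments scaled to the length of the unigene and to the mapped reads of the library, so that levels of different unigenes can be set side by side per length. The 15 libraries summed to between 490161 and 563597 FPKM and held between 36317 and 44904 unigenes above 0. Mature fruit libraries 2 and 3 stood apart from library 1, with 2792 unigenes above 0 in those 2 libraries and in no other, against 68 for mature fruit libraries 1 and 2 and 62 for libraries 1 and 3. Calls that rest on mature fruit are therefore also given without these 2 libraries, and its sums and ratios library by library. Since the sources pair only the MYBs with gene names, the tissue labels could not be checked against markers of tissues or cell types. In whole organs, fewer cells that express a gene and less RNA of it per cell cannot be told apart.

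All 4 homologs lay above the 0.1 FPKM filter in every library, the lowest value being 0.349 FPKM, so that the filter on low values left out none of them. A difference between tissues was called where limma, fitted on log2(FPKM + 0.1), gave an adjusted p of at most 0.01 and a log2 fold change of at least 1 in either direction. Over the 10 pairs of tissues, 14 of the 40 comparisons of the 4 homologs were called, beside 30% of the comparisons of all 51175 unigenes tested. The homologs did not share a pattern. DN146126_c4_g1 was low in mature fruit, DN149700_c2_g3 was low in both fruit stages and DN144174_c0_g4 was low in leaf and flower, while DN149700_c2_g2 was called in no pair.

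The number of homologs called differed from pair to pair. Of the 4, 1 was higher in stem than in leaf, where 14.1% of all unigenes tested were higher, and 1 was lower in flower than in stem (8.94% of all). None passed between flower and leaf, where 18.8% of all passed in either direction. Young fruit was higher than leaf in 1 homolog (27.2% of all) and lower in 1 (14.7%), lower than stem in 1 (10%), and higher than flower in 1 (22.7%) and lower in 1 (16.3%). Mature fruit was higher than leaf in 1 homolog (18.2%) and lower in 2 (18.8%), lower than stem in 1 (17.1%), lower than flower in 2 (20.5%) and lower than young fruit in 1 (22.1%). With 4 homologs, counts of 0 to 2 cannot be told from these backgrounds, and the values that follow are those of each homolog by itself.

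DN146126_c4_g1, an ETC1 homolog, was the most abundant of the 4 in every tissue, and it fell in mature fruit. In young fruit its libraries stood at 86.3, 87.7 and 95.1 FPKM, and in stem at 81.6, 86.9 and 83.7 FPKM. In leaf they stood at 54.6, 51.7 and 50.6 FPKM, and in flower at 49.3, 55.2 and 54.9 FPKM. In mature fruit they stood at 11.9, 13.1 and 11.7 FPKM. The 3 mature fruit libraries thus lay below the other 12, the 6 libraries of stem and young fruit lay above the 6 of leaf and flower, and within each of these sets the tissues overlapped. With coefficients of variation of between 3.17% and 6.30% in the 5 tissues, the libraries of a tissue were close to each other.

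The mean of DN146126_c4_g1 came to 89.7 ± 4.74 FPKM in young fruit and 84.1 ± 2.67 in stem, to 53.1 ± 3.34 in flower and 52.3 ± 2.08 in leaf, and to 12.3 ± 0.723 in mature fruit (SD, n = 3). Young and mature fruit, the stages of 1 organ, were 7.32-fold apart, the widest gap of this unigene. On the log2 scale mature fruit was lower by 2.86 than young fruit (SE 0.06, limma adjusted p = 3.19e-12), and the log2 fold change was -2.77 against stem (adjusted p = 1.83e-12), -2.11 against flower (adjusted p = 1.92e-11) and -2.09 against leaf (adjusted p = 1.68e-11). A fall in mature fruit against each other tissue was seen in 5.39% of all unigenes. It was called for this homolog under each of the alternative settings, and without mature fruit libraries 2 and 3 the log2 fold change against young fruit was -2.90, against stem -2.81, against flower -2.14 and against leaf -2.12.

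The other differences of DN146126_c4_g1 were smaller than the fold threshold, though some were larger than the spread between libraries. Stem was above leaf by 0.68 on the log2 scale (SE 0.06, limma adjusted p = 1.64e-06) and young fruit was above leaf by 0.78 (SE 0.06, adjusted p = 2.39e-07) and above flower by 0.76 (SE 0.06, adjusted p = 3.53e-07). Neighbours in the order of its levels that were not told apart were young fruit and stem, with a log2 difference of 0.09 (95% interval -0.05 to 0.23, adjusted p = 0.292), and flower and leaf, with 0.02 (95% interval -0.12 to 0.16, adjusted p = 0.998). The sign of the last difference depended on the scaling and was -0.31 with median-of-ratios size factors. Among the 163 MYBs the mean of DN146126_c4_g1 ranked 2 in young fruit, 3 in stem and in flower, 6 in leaf and 21 in mature fruit.

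**Figure D1:**
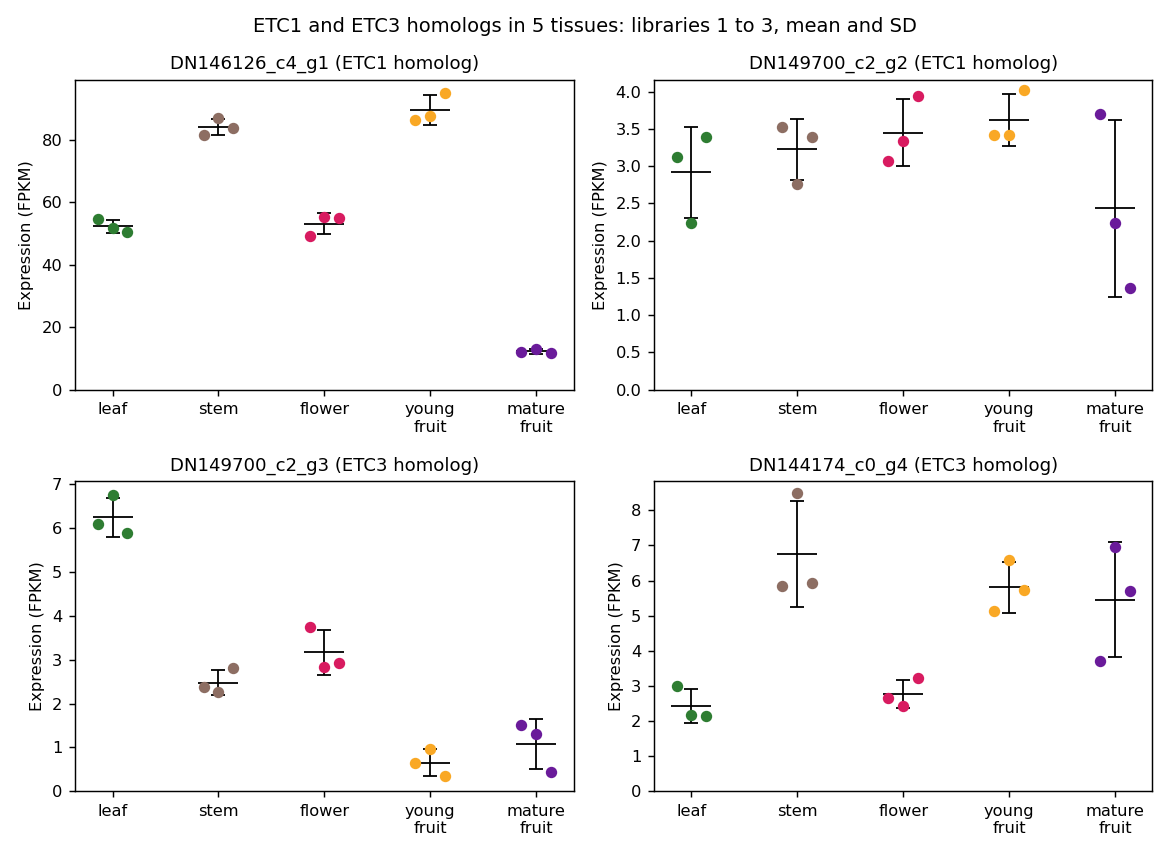
FPKM (vertical axes, each starting at 0) of the 4 ETC homologs in the 5 tissues, with 1 point per library, a bar at the mean and whiskers of 1 SD (n = 3). DN146126_c4_g1 sat between 11.7 and 13.1 FPKM in mature fruit and between 49.3 and 95.1 FPKM elsewhere, DN149700_c2_g2 stayed between 1.36 and 4.02 FPKM, DN149700_c2_g3 was highest in leaf, and DN144174_c0_g4 was lowest in leaf and flower.

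DN149700_c2_g2, the other ETC1 homolog, was present at a few FPKM in all 5 tissues and was called in none of the 10 pairs. Its libraries stood at 3.12, 2.23 and 3.40 FPKM in leaf, at 3.52, 2.76 and 3.40 in stem and at 3.07, 3.34 and 3.94 in flower. In young fruit they stood at 3.42, 3.42 and 4.02 FPKM and in mature fruit at 3.71, 2.24 and 1.36. The mature fruit libraries were the most widely spread. The young fruit libraries lay just above those of leaf, and every other pair of tissues overlapped.

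The means of DN149700_c2_g2 ran from 2.43 ± 1.19 FPKM in mature fruit to 3.62 ± 0.347 in young fruit (SD, n = 3), with 2.92 ± 0.609 in leaf, 3.23 ± 0.411 in stem and 3.45 ± 0.447 in flower. No neighbours in this order were told apart. The widest difference, mature against young fruit, was -0.66 on the log2 scale (SE 0.28, 95% interval -1.27 to -0.05, limma adjusted p = 0.0699). This difference, not called with all libraries, depended on which mature fruit libraries were fitted. It was -1.01 and passed without mature fruit library 1, and was 0.04 without libraries 2 and 3. Being called in no pair was shared by 23 of the 142 MYBs tested and by 30.2% of all unigenes tested. The intervals do not show that the levels were equal, as those between leaf, stem, flower and young fruit reached from -0.54 to 0.93 on the log2 scale.

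DN149700_c2_g3, an ETC3 homolog, was highest in leaf and lowest in fruit. Its libraries stood at 6.09, 6.73 and 5.89 FPKM in leaf, at 2.37, 2.26 and 2.80 in stem and at 3.74, 2.83 and 2.92 in flower. In young fruit they stood at 0.649, 0.971 and 0.349 FPKM and in mature fruit at 1.52, 1.30 and 0.443. The 3 leaf libraries lay above the other 12 and the 6 fruit libraries lay below the other 9, whereas the fruit stages overlapped and all stem libraries lay below those of flower.

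DN149700_c2_g3 had a mean of 6.24 ± 0.443 FPKM in leaf. Flower followed with 3.16 ± 0.503, stem with 2.48 ± 0.288, mature fruit with 1.09 ± 0.569 and young fruit with 0.656 ± 0.311 (SD, n = 3). Leaf exceeded young fruit 9.51-fold, the widest ratio of tissue means of the 4 homologs. Young fruit was lower by 3.15 than leaf on the log2 scale (SE 0.38, limma adjusted p = 7.93e-06), with log2 fold changes of -2.19 against flower (adjusted p = 0.000225) and -1.85 against stem (adjusted p = 0.00117). Mature fruit was lower by 2.56 than leaf (SE 0.38, adjusted p = 6.25e-05) and had a log2 fold change of -1.60 against flower (adjusted p = 0.00296). The call against flower was lost without mature fruit libraries 2 and 3, at -0.997, and also without flower library 1, at -1.47. Both this call and that of young fruit against stem were lost when only the 6 libraries of the pair were fitted. Without mature fruit libraries 2 and 3 the value for mature fruit against leaf was -1.96 and was still called.

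Neighbouring levels of DN149700_c2_g3 were not told apart by the test. Flower and leaf differed by -0.97 on the log2 scale (SE 0.38, limma adjusted p = 0.0659), flower and stem by 0.34 (SE 0.38, adjusted p = 0.583), mature fruit and stem by -1.26 (SE 0.38, adjusted p = 0.0143), and mature and young fruit by 0.59 (95% interval -0.23 to 1.41, adjusted p = 0.232). Stem against leaf missed the threshold as well, at -1.30 (SE 0.38, adjusted p = 0.0136), but it passed under several settings, among them median-of-ratios scaling, at -1.52, and the setting without mature fruit libraries 2 and 3. Without mature fruit library 3 the fruit stages differed by 1.08 and passed, and without mature fruit library 1 or young fruit library 3 mature fruit was called lower than stem. The levels of DN149700_c2_g3 in fruit, at about 1 FPKM, thus varied between libraries by as much as the stages differed.

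DN144174_c0_g4, the other ETC3 homolog, was higher in stem and young fruit than in leaf and flower. Its libraries stood at 5.85, 8.49 and 5.93 FPKM in stem, at 5.12, 6.58 and 5.73 in young fruit and at 3.72, 6.95 and 5.71 in mature fruit. They stood at 2.65, 2.44 and 3.23 FPKM in flower and at 2.99, 2.16 and 2.14 in leaf. The 9 libraries of stem and fruit lay above the 6 libraries of leaf and flower, and within each of these sets the tissues overlapped.

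The means of DN144174_c0_g4 were 6.76 ± 1.503 FPKM in stem, 5.81 ± 0.731 in young fruit, 5.46 ± 1.63 in mature fruit, 2.77 ± 0.408 in flower and 2.43 ± 0.483 in leaf (SD, n = 3). Stem was above leaf by 1.43 on the log2 scale (SE 0.23, limma adjusted p = 0.000192), and flower was lower than stem, with a log2 fold change of -1.24 (SE 0.23, adjusted p = 0.00074). Both of these calls were held under each of the alternative settings. Young fruit was above leaf by 1.23 (SE 0.23, adjusted p = 0.000389) and above flower by 1.04 (SE 0.23, adjusted p = 0.00149), and mature fruit was above leaf by 1.11 (SE 0.23, adjusted p = 0.00104).

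These fruit calls of DN144174_c0_g4 lay near the fold threshold. With a pseudocount of 1 the log2 fold changes were 0.99 for young fruit against leaf, 0.85 for young fruit against flower and 0.89 for mature fruit against leaf, and none was called. Young fruit against flower was also lost without flower library 2, at 0.96, or young fruit library 2, at 0.95. Mature fruit against leaf was lost without mature fruit library 2, at 0.91, and without mature fruit libraries 2 and 3, at 0.61, as well as with median-of-ratios scaling, at 0.89, and with only the 6 libraries of the pair. Mature fruit against flower, at 0.92 (SE 0.23, limma adjusted p = 0.00424), did not reach the fold threshold, and it passed without mature fruit library 1, at 1.17, and without flower library 3 or with median-of-ratios scaling, at 1.03 each. The neighbours that were not told apart were stem and young fruit (-0.20, adjusted p = 0.544), young and mature fruit (-0.13, 95% interval -0.62 to 0.37, adjusted p = 0.73) and flower and leaf (0.19, adjusted p = 0.661).

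**Figure D2:**
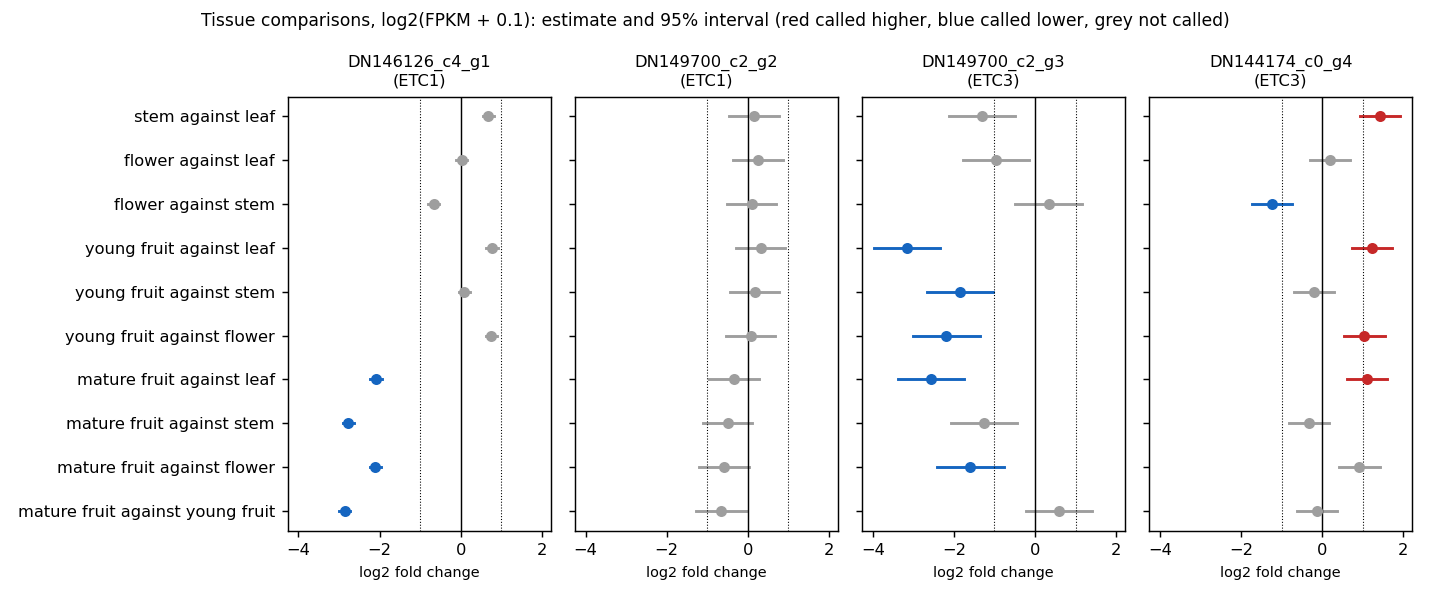
Log2 fold change (horizontal axis, on log2(FPKM + 0.1)) of the first named tissue against the second for the 10 pairs of tissues and the 4 ETC homologs, with points for the limma estimates, lines for their 95% intervals and dotted lines at the fold threshold of 1 in either direction. The 4 called values of DN146126_c4_g1 are the comparisons with mature fruit, DN149700_c2_g2 has none, and DN149700_c2_g3 and DN144174_c0_g4 have 5 each, those of DN149700_c2_g3 all lower in fruit.

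DN149700_c2_g3 and DN144174_c0_g4, both described as ETC3, were called in opposite directions in young fruit against leaf, in young fruit against flower and in mature fruit against leaf. The calls of DN144174_c0_g4 in these pairs lay near the fold threshold and were lost with a pseudocount of 1. Over the 15 libraries, which fall into 5 tissues and are not independent points, Pearson's r of log2(FPKM + 0.1) between these ETC3 homologs was -0.668. Between the ETC1 homologs DN146126_c4_g1 and DN149700_c2_g2 it was 0.577, and the other pairs of the 4 had values of between -0.135 and 0.161. Of the 142 MYBs tested, 86 were called in more pairs than the 4 of DN146126_c4_g1, and 74 in more than the 5 of each ETC3 homolog. Over all 51175 unigenes tested the shares were smaller, with 24.5% called in more than 4 pairs against 60.6% of the MYBs, and 20.0% in more than 5 pairs against 52.1% of the MYBs.

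DN149700_c2_g2 and DN149700_c2_g3 come from the same subgroup, c2, of an assembly cluster, a group of transcripts that share sequence, so that reads may have been divided between them. Their proportion changed from tissue to tissue. The log2 ratio of DN149700_c2_g3 to DN149700_c2_g2 in each library, computed on FPKM + 0.1, was 0.94, 1.55 and 0.78 in leaf, -0.55, -0.28 and -0.27 in stem and 0.28, -0.23 and -0.42 in flower. It was -2.23, -1.72 and -3.20 in young fruit and -1.23, -0.74 and -1.43 in mature fruit. DN149700_c2_g3 was the higher of the pair in all leaf libraries and in 1 flower library and the lower in the other 11, and the young fruit libraries lay below all others. The means were 1.09 ± 0.408 in leaf, -0.12 ± 0.362 in flower, -0.37 ± 0.161 in stem and, in fruit, -1.13 ± 0.353 at the mature and -2.38 ± 0.752 at the young stage (SD, n = 3). They were not tested. How much of this rests on the division of reads between the unigenes was not tested.

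The 4 homologs summed to 99.8 ± 4.96 FPKM in young fruit and 96.5 ± 3.58 in stem. Leaf reached 63.9 ± 2.56, flower 62.5 ± 3.33 and mature fruit 21.2 ± 2.18 (SD, n = 3), the mature fruit libraries standing at 20.9, 23.6 and 19.3 FPKM. DN146126_c4_g1 carried most of each sum, with 89.9% ± 0.869 in young fruit, 87.1% ± 0.481 in stem, 85.0% ± 1.38 in flower and 81.9% ± 0.382 in leaf. In mature fruit its share was 57.9% ± 2.81, and the 3 mature fruit libraries, at 57.2%, 55.5% and 61.0%, lay below the other 12. The sum of the other 3 homologs varied less, from 8.98 ± 1.49 FPKM in mature fruit to 12.5 ± 0.926 in stem.

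**Figure D3:**
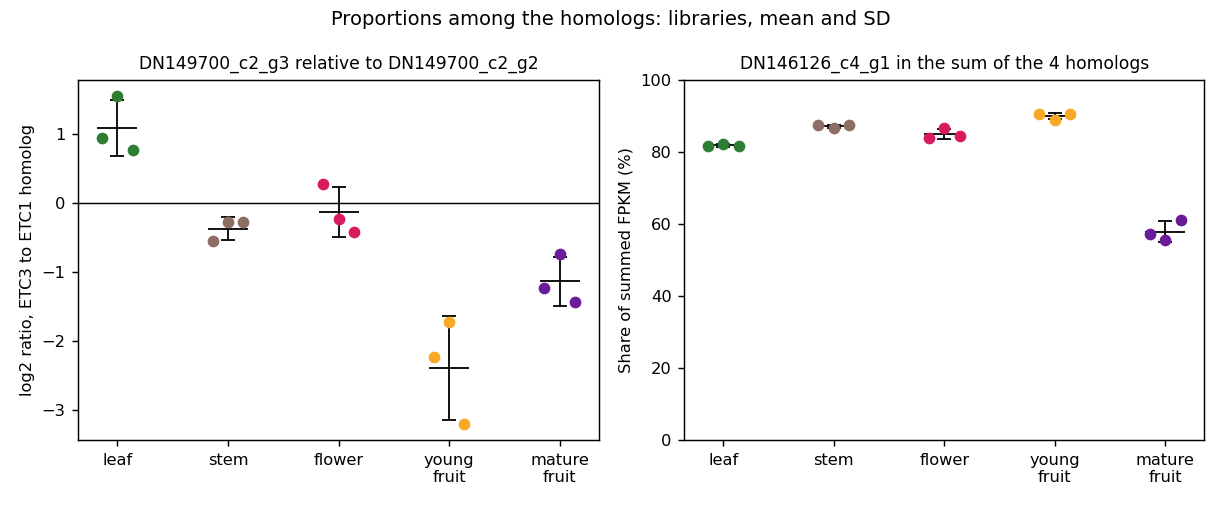
Left, log2 ratio of DN149700_c2_g3 to DN149700_c2_g2 (vertical axis, on FPKM + 0.1, with a line at 0 for equal levels), and right, the share of DN146126_c4_g1 in the summed FPKM of the 4 homologs (vertical axis, percent), by tissue, with 1 point per library, a bar at the mean and whiskers of 1 SD (n = 3). The ratio was above 0 in all leaf libraries and lowest in young fruit, and the share was between 55.5% and 61.0% in mature fruit and between 81.6% and 90.4% elsewhere.

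In Arabidopsis the counterparts of ETC1 and ETC3 are R2R3 MYBs of the epidermis. The table of MYBs holds 16 unigenes described as such, 10 of them MYB82-like, 3 WER-like, 1 GL1-like and 2 matched to MYB5, which acts with GLABRA1-type MYBs in trichomes and in seed coat mucilage of Arabidopsis. Of these, 14 passed the filter on low values, and the GL1-like DN141656_c0_g3 was listed at 0 in all 15 libraries. Several of the MYB82-like unigenes, among them DN146459_c2_g1, DN146459_c2_g8 and DN146459_c2_g9, come from the same subgroup of an assembly cluster. DN148549_c3_g2 and DN148549_c3_g4 share another. Reads may have been divided between such unigenes, so that the members are not all independent in the counts below. The list was made from descriptions, with earlier results of these data known. Its summed level followed another order of tissues than that of the homologs, with 106 ± 1.76 FPKM in flower, 54.3 ± 2.86 in leaf, 48.0 ± 1.27 in young fruit, 37.1 ± 0.351 in stem and, as the lowest, 6.96 ± 1.44 in mature fruit (SD, n = 3). The mature fruit libraries of the list stood at 8.43, 6.91 and 5.55 FPKM. Both sums were lowest in mature fruit, where no library of either sum reached the level of any other tissue.

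The summed FPKM of the 4 ETC homologs divided by that of the list was 0.565, 0.599 and 0.606 in the flower libraries and 1.21, 1.23 and 1.10 in leaf. It was 2.04, 1.998 and 2.21 in young fruit, 2.52, 2.74 and 2.56 in stem, and 2.48, 3.41 and 3.47 in mature fruit. The list exceeded the homologs in flower and was below them in the other 12 libraries, and stem and mature fruit overlapped. Mature fruit library 1, with 2.48, was the lowest of its tissue, and the mean over the 3 was 3.12 ± 0.557, against 0.590 ± 0.0218 in flower (SD, n = 3). The make-up of the list sum differed between tissues. Its MYB82-like unigenes had mean sums of 94.4 FPKM in flower, 40.4 in leaf, 37.6 in young fruit and 27.4 in stem. In the mature fruit libraries they summed to 1.31, 1.34 and 0.355 FPKM. Most of the list sum there came from the MYB5 homolog DN145308_c4_g1, with a mean of 4.30 FPKM. The ratio in mature fruit thus rests mainly on that member.

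Against young fruit, 4 of the 14 list members tested were lower in mature fruit, 1 was higher and 9 were not called, where 22.1% of all unigenes tested were lower and 8.06% higher, and where 49 of the 138 tested MYBs other than the 4 homologs were lower. The 9 not called had means of at most 0.205 FPKM in young fruit and 0.307 in mature fruit. Little or no room for a fall was left in them, so that they do not show an unchanged level. The median log2 fold change, which includes them, was -0.29 for the list beside -0.12 over all unigenes tested. Without mature fruit libraries 2 and 3, 3 were lower and 2 higher. DN146459_c2_g1, MYB82-like and thus matched to a trichome regulator, was the most abundant list member in young fruit, at 26.1 FPKM, and stood at 0.306 in mature fruit. It fell by 6.23 on the log2 scale (SE 0.32, limma adjusted p = 3.71e-09), and the MYB82-like DN148549_c3_g4 fell by 5.39 (SE 0.43, adjusted p = 2.39e-07). The WER-like DN140431_c0_g1 had a log2 fold change of -1.78, at low levels of 0.571 FPKM in young and 0.103 in mature fruit. That of the MYB5 homolog DN145308_c4_g1 was -1.07, and the WER-like DN145308_c4_g5 rose by 1.41, from 0.516 to 1.56 FPKM. DN146459_c2_g9 and DN144568_c0_g4, the members with the next highest means, stood at 0.0296 and 0.102 FPKM in young fruit and at 0 and 0.307 in mature fruit, against 15.3 and 8.67 FPKM in flower. The count of list members called in this pair was 2 with a pseudocount of 1.

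The list was also counted in the other pairs of tissues, where members of the same subgroup are again not independent. Mature fruit was lower than flower in 11 of its 14 members, than leaf in 10 and than stem in 8, with 1 member higher each time. Of all unigenes tested, 20.5%, 18.8% and 17.1% were lower in these pairs, and 13.4%, 18.2% and 12.3% higher. Of the 138 tested MYBs other than the 4 homologs, 61, 49 and 66 were lower. Without mature fruit libraries 2 and 3 the list had 8 members lower than in flower, 10 lower than in leaf and 5 lower than in stem.

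Young fruit was lower than flower in 8 list members, than leaf in 7 and than stem in 6, again with 1 higher each time, where 16.3%, 14.7% and 10% of all unigenes were lower and 22.7%, 27.2% and 17.4% higher. Members such as DN146459_c2_g11 and DN148549_c3_g2 were listed at 0 in both fruit stages and passed the filter only through other tissues. Lower was the only call open to them in young or mature fruit, and the counts for both stages include them. Flower was higher than stem in 6 list members (10.1% of all unigenes) and lower in 1 (8.94%), and higher than leaf in 3 (12.2%). Stem was lower than leaf in 4 list members (9.75%) and higher in 2 (14.1%). These counts, too, hold members for which only 1 direction was open. The 2 members higher in stem than in leaf, DN140431_c0_g1 and DN146459_c2_g11, were listed at 0 in leaf. The former is also the member higher in young fruit than in leaf, and the latter is among those higher in flower than in leaf. DN148549_c3_g2, listed at 0 in stem, is among those lower in stem than in leaf and higher in flower than in stem. The median log2 fold change of mature fruit was negative for both sets against leaf, at -3.07 for the list and -1.21 for the 4 homologs, against flower, at -2.82 and -1.09, and against stem, at -1.89 and -0.88, beside 0 over all unigenes in each pair. For the 138 tested MYBs other than the homologs it was -0.24, -0.91 and -1.16, lower than that of the homologs against stem. Of the calls over all unigenes, 49.2%, 39.6% and 41.9% were higher in mature fruit in these pairs. The list medians include members listed at 0 in mature fruit, among them DN146459_c2_g8, DN146459_c2_g9 and DN142862_c4_g2. Their fold change could not be positive, which bears on the sign of these medians. Of the 4 homologs, 1 was called higher in mature fruit than in leaf and 2 lower. That 1, DN144174_c0_g4, had a log2 fold change of 1.11 against leaf and 0.92, not called, against flower, where 2 homologs were lower. In young fruit against flower the median was -2.04 for the list, again with members listed at 0 in young fruit. For the homologs, of which 1 was called higher and 1 lower, the median was 0.41. It was 0 over all unigenes and -0.07 for the MYBs other than the homologs.

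**Figure D4:**
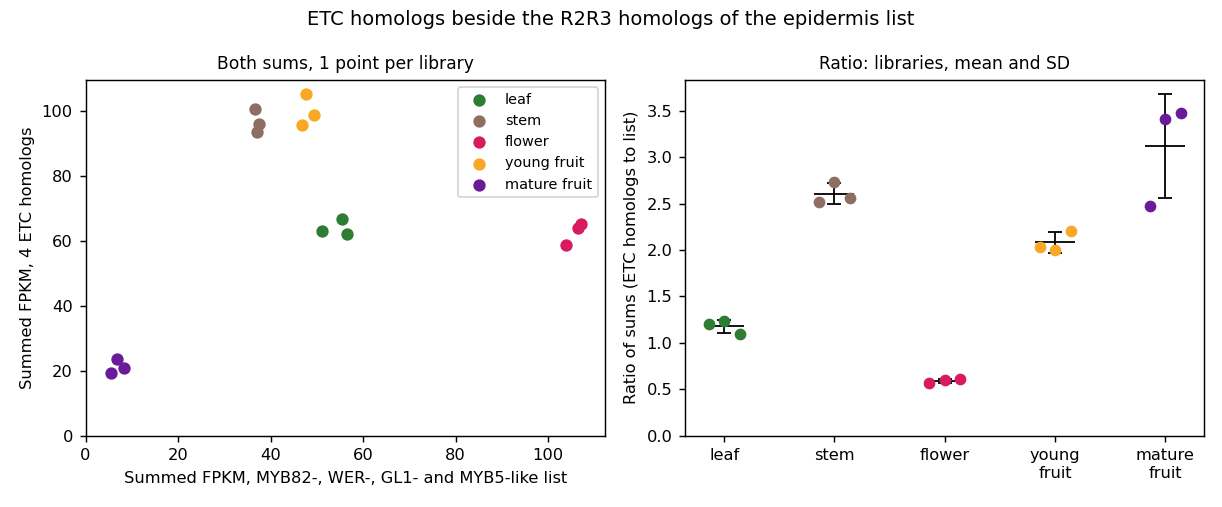
Left, summed FPKM of the 4 ETC homologs (vertical axis) against summed FPKM of the 16 MYB82-, WER-, GL1- and MYB5-like unigenes (horizontal axis), with 1 point per library, and right, the ratio of the first sum to the second by tissue, with points for libraries, a bar at the mean and whiskers of 1 SD (n = 3). Mature fruit lies low on both axes, flower has a list sum of between 104 and 107 FPKM with a ratio of between 0.565 and 0.606, and the ratio is above 1 in all other tissues.

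The MYBs whose profiles were most like those of the homologs were ranked by Pearson's r of log2(FPKM + 0.1) over the 15 libraries, among 141 MYBs for each homolog. The libraries share tissues, so that r describes mainly the 5 tissue means. For DN146126_c4_g1 they were DN144824_c3_g1 (MYB44-like, r = 0.948), DN145021_c0_g7 (MYB86-like, r = 0.914) and DN148549_c3_g4 (MYB82-like, r = 0.910), all of them with their lowest mean in mature fruit, at 1.18, 1.55 and 0.221 FPKM. For DN149700_c2_g3 they were DN136168_c0_g1 (MYB308, r = 0.905), DN143003_c0_g1 (described as MYB-related protein P, r = 0.898) and DN146459_c0_g1 (MYB330, r = 0.888). MYB308 and MYB330 are named after repressors of phenylpropanoid synthesis in Antirrhinum, and the 3 unigenes had their highest means in leaf, at 59.4, 0.624 and 18.3 FPKM.

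For DN144174_c0_g4 the nearest were DN127953_c0_g1 (MYB-like protein AA, r = 0.862), DN124843_c0_g1 (MYB28-like, r = 0.845) and DN146048_c0_g4 (MYB35-like, r = 0.830). The former pair was highest in stem, at 9.70 and 1.35 FPKM, whereas the MYB35-like unigene stayed between 4.99 and 6.87 FPKM in the tissue means. DN149700_c2_g2 had the lowest values of r, with DN127588_c0_g1 (EFM, a flowering repressor in Arabidopsis, r = 0.735), DN148549_c3_g4 (r = 0.714) and DN146459_c2_g7 (MYB108, r = 0.681). All 3 had their lowest mean in mature fruit.

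DN134407_c0_g1, the remaining unigene with an ETC3 description, was low and uneven. Its libraries stood at 0.380, 0.195 and 0.514 FPKM in leaf, at 0.212, 1.77 and 0.334 in stem and at 0.210, 0.196 and 0.181 in flower. They stood at 0.162, 0.688 and 0.317 FPKM in young fruit and at 0.174, 0 and 0.375 in mature fruit. Stem library 2 was the only one above 1 FPKM. The stem libraries lay just above those of flower, and every other pair of tissues overlapped. No pair of tissues was called, and the widest log2 difference, mature fruit against stem, was -1.43 with an SE of 0.70 (limma adjusted p = 0.118).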

How the data were processed

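RNA of 5 tissues, with 3 libraries a tissue and 15 in all, was sequenced on an Illumina instrument. The authors assembled the reads with Trinity, aligned them with Bowtie2 and estimated abundance with RSEM, and the submitters' processing notes also name Trimmomatic (their versions: not given in the sources used here). The authors deposited FPKM values, 1 per unigene and library. Without counts in the files, counting error cannot be given, and a value of 0 means only that a unigene is listed at 0.

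From the deposited FPKM, log2(FPKM + 0.1) was modelled by limma 3.58.1 (R 4.3.3) with a mean for each tissue and a trended prior variance. The fold changes are on this scale, which understates the change of low unigenes. A unigene entered the test when 3 or more libraries exceeded 0.1 FPKM, and 12552 did not. P-values were adjusted after Benjamini-Hochberg over the 51175 unigenes tested, within each of the 10 pairs. A call needed an adjusted p of at most 0.01 and a log2 fold change of at least 1. Reads could not be recovered as whole numbers from the values, and a count test was not used.

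Descriptions came from the table of MYBs, of which identifiers and descriptions were read. The 4 homologs were named in full, with the remaining ETC3 unigene, the 3 MYBs of highest Pearson's r for each homolog, up to 5 called members and up to 2 others of the R2R3 list, and at most 2 higher and 2 lower unigenes of the same assembly clusters. The homologs and lists were chosen with earlier results of these data known. Summaries used pandas 2.3.3 and numpy 2.4.6, and plots matplotlib 3.10.9, under Python 3.11.15. The fit was tested on simulated data. Alternatives covered the pseudocount, the filter, median-of-ratios scaling, the prior, the libraries fitted, the adjustment, a replicate block and libraries left out.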

Additional observations from a re-analysis of the deposited data

How the results depend on the processing

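Of the 14 called comparisons of the homologs, 337 of 350 values over the alternative settings kept their call, 13 lost it and none changed sign, and 5 comparisons lost a call at least once. Of the 26 comparisons not called, 5 were called under some setting. Over all 10 pairs, 14 calls were made with the replicate block as without it. Same-numbered libraries of different tissues did not deviate together, with correlations of between -0.0419 and 0.0613 over 30 pairs of libraries. A small effect of a shared plant could also give such values, so that whether the numbers pair the libraries cannot be told. Leaving out single libraries gave between 13 and 18 calls.

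In stem against leaf, 2 homologs in place of 1 were called with a pseudocount of 1, with median-of-ratios scaling, with only the 6 libraries of the pair and without mature fruit libraries 2 and 3, and 1 to 2 when single libraries were left out. Homologs called between the fruit stages, and homologs lower in 1 tissue than in each other, also numbered 1 to 2 when single libraries were left out. The R2R3 list had 5 members called between the fruit stages, 2 with a pseudocount of 1 and 3 with only the 6 libraries. The log2 ratio of DN149700_c2_g3 to DN149700_c2_g2 was -1.496 in young fruit and -0.70 in mature fruit with a pseudocount of 1, and in flower it ranged from -0.33 to 0.023 when single libraries were left out.

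Signs changed in comparisons that were not called. With median-of-ratios scaling DN149700_c2_g2 gave -0.062 for stem against leaf, -0.075 for flower against leaf and -0.013 for flower against stem, and flower against leaf was -0.31 for DN146126_c4_g1 and -0.13 for DN144174_c0_g4. This scaling moved the share of calls that were higher in flower than in leaf from 65.1% to 48.7% over all unigenes, and the median log2 fold change of young fruit against leaf from 0.27 to 0.13. Without mature fruit libraries 2 and 3, where the lone library is assumed to vary like those of the other tissues, DN149700_c2_g2 gave 0.36 against leaf, 0.20 against stem, 0.11 against flower and 0.036 against young fruit. When single libraries were left out, DN149700_c2_g2 ranged from -0.020 to 0.27 for stem against leaf, from -0.012 to 0.17 for flower against stem, from -0.0064 to 0.17 for young fruit against flower and from -0.69 to 0.0045 for mature fruit against leaf. DN146126_c4_g1 ranged from -0.0076 to 0.074 for flower against leaf, and DN144174_c0_g4 from -0.32 to 0.12 for mature against young fruit. The cause of these changes was not tested. The number of libraries limits the precision, and the depth behind each value is not in the files.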

Other observations

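The assembly clusters that hold the homologs also hold unigenes that the sources pair with no gene name. DN144174_c0_g2, in the same cluster and subgroup as the ETC3 homolog DN144174_c0_g4, was far more abundant and moved differently. Its libraries stood at 74.2, 75.5 and 75.3 FPKM in leaf, at 31.6, 28.7 and 32.5 in young fruit and at 3.16, 5.50 and 5.45 in mature fruit, without overlap between these tissues. Stem was lower than leaf by 1.17 on the log2 scale (SE 0.16, limma adjusted p = 4.31e-05), where DN144174_c0_g4 was higher. DN144174_c0_g1 of the same subgroup was listed at 0 in all 12 libraries outside mature fruit and stood at 3.61, 1.33 and 0.947 FPKM in mature fruit. Pearson's r with DN144174_c0_g4 over the 15 libraries was -0.260 and 0.198.

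The cluster of DN149700_c2_g2 and DN149700_c2_g3 holds 9 further unigenes, of which 2 are in the subgroup c2 of these homologs. Over the 9, Pearson's r ran from -0.886 to 0.860 with DN149700_c2_g3 and from -0.265 to 0.242 with DN149700_c2_g2. DN149700_c3_g3, of another subgroup, had its highest mean in leaf, with 18.0 ± 0.812 FPKM against 0.698 ± 0.192 in stem and 0.203 ± 0.0643 in young fruit (SD, n = 3). Its r with DN149700_c2_g3 was the highest of the 9, and with DN149700_c2_g2 it was 0.0195. DN149700_c1_g2, also of another subgroup, was highest in stem, at 48.7 ± 1.998 FPKM, and was called in 9 of the 10 pairs. Whether reads were divided between unigenes of a cluster was not tested.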
